A study of Mus musculus with 4 samples.

Results

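The genes described here are 33 genes of the p53 response and of apoptosis, chosen by name, out of 17568 genes in a table of forelimb gene expression. Of the 33, 18 belong to the p53 pathway and 15 to the general machinery of cell death. All 33 were listed, and 32 reached the mean of 1 CPM (reads per 1000000, normalized) that was required for testing. Bik, the remaining gene, was near the limit of detection. The tissue was wild-type mouse forelimb of the Swiss Webster strain, taken from embryos at E10.25 (31 to 34 somites), cultured either in control medium (2 libraries) or in medium with cyclopamine (2 libraries). Cyclopamine is a plant alkaloid that blocks Smoothened, the protein that carries the Hedgehog signal across the cell membrane. How much cyclopamine was used, in what vehicle and for how long, and how many embryos went into a library, is not known from the labels. The comparison asks whether these genes differ when Hedgehog signalling is inhibited in cultured limb buds.

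The protein p53, encoded by Trp53, is a transcription factor that is normally kept scarce by Mdm2 and restrained by Mdm4. When DNA damage or another stress releases it, it activates genes that stop the cell cycle, such as Cdkn1a, and genes that promote death, such as Bbc3 and Pmaip1. Death itself is decided at the outer membrane of the mitochondrion, where the pore-forming proteins Bax and Bak1 are held by survival proteins such as Bcl2 and Mcl1 and set free by BH3-only proteins, after which cytochrome c (Cycs) leaves the mitochondrion and binds Apaf1 to activate caspases. Much of p53's own activity is set at the level of protein, which RNA sequencing does not measure. In the limb bud, programmed death removes cells at defined places, and loss of the Hedgehog signal is known to raise cell death in limb mesenchyme.

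Sequences that resemble the element bound by p53 are shown here because they can be read apart from expression. The p53 consensus element is a pair of abutting half-sites of 10 bases. Promoter windows of 300 bases, from 250 before to 50 after a RefSeq start site (GRCm38.p6, equal to mm10 in its chromosomes), were searched for stretches of 20 bases that hold the C and the G invariant in each half-site and match the consensus at 17 or more of the 20 positions. The element reads alike on both strands, so a single pass covers both. A window was held for 28 of the 33 genes, and none for Perp, Pmaip1, Bik, Zmat3 and Trp53inp1. An element was found in 7 of 14 p53 pathway genes with a window and in 0 of 14 death machinery genes, against 1.63% of all 27025 genes with a window. The p53 pathway genes were listed as Trp53 itself, its inhibitors Mdm2 and Mdm4, and known targets, so this count is a description. The best matches, at 19 of 20 positions, were in Cdkn1a, Ccng1 and Gtse1, a score reached by 0.0814% of all genes. The elements follow with 5 flanking bases on each side in lower case and the 20 matched bases in capitals.
Cdkn1a (chr17:29090923-29090952, + strand): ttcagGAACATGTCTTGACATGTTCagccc
Ccng1 (chr11:40755457-40755486, - strand): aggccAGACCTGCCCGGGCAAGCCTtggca
Gtse1 (chr15:85859940-85859969, + strand): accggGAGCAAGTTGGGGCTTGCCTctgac
Aen (chr7:78895932-78895961, + strand): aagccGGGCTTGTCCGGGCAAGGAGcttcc
Bbc3 (chr7:16309481-16309510, + strand): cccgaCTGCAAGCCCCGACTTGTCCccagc
Sesn1 (chr10:41887261-41887290, + strand): ccttcAAGCTTGTTTTTGCTGGCCTggtcc
Trp53 (chr11:69580279-69580308, + strand): cggaaGGACTTGCCCTTACTTGTTAtggcg
A match describes letters in the reference genome and not binding, and p53 elements that lie in introns or farther from the start fall outside these windows.

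Across the 4 libraries the values correspond to between 9779589 and 13555492 reads assigned to genes. The treatment was visible in the direct Hedgehog target genes. Gli1 measured 56.2 and 56.7 CPM in control medium and 8.05 and 4.70 CPM with cyclopamine. The 7 limb mesenchyme markers were present in every library. They summed to 1259 and 1247 CPM in control medium and 1314 and 1462 CPM with cyclopamine, so both cyclopamine libraries were higher. Neural markers were not level between libraries: the 7 genes of that list summed to 41.6 and 70.7 CPM in the controls and to 8.52 and 10.21 CPM in cyclopamine, and 3 of them were at 0 in at least 1 library. Erythroid markers (6 genes) summed to 1304 and 606 CPM in control medium and 2134 and 1254 CPM with cyclopamine. In bulk tissue, fewer cells of a type and less RNA per cell cannot be told apart. The libraries are biological replicates per the labels, which do not tell separate embryos apart, so p-values measure the spread between these samples.

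In the fit by condition alone, no difference passed the test over the 33 genes. In limma on log2(CPM + 0.5), with Benjamini-Hochberg adjustment over 13568 genes, 0 of 18 p53 pathway genes and 0 of 14 tested death machinery genes had an adjusted p under 0.05, against 0.28% of all genes tested. Run on recovered reads, edgeR's quasi-likelihood test called 0 of the 32 (0.295% of all genes) and had 7 at an unadjusted p under 0.05 (6.02% of all genes), DESeq2 called 0 (0.383%), and the authors' deposited table has 0 of the 33 under a false discovery rate of 0.05 (0.455%), the smallest being 0.105. At an unadjusted p under 0.05 in limma there were 7 of 32, 4 higher and 3 lower in cyclopamine, where all genes gave 5.82%, of which 3.04% were higher and 2.78% lower. Those 7 were Trp53inp1, Sesn1, Perp and Bmf on the higher side and Eda2r, Pmaip1 and Bcl2 on the lower side. With 2 libraries against 2, an exact permutation of labels cannot go below p = 0.333, so these values rest on the spread that limma shares across genes.

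**Figure D1:**
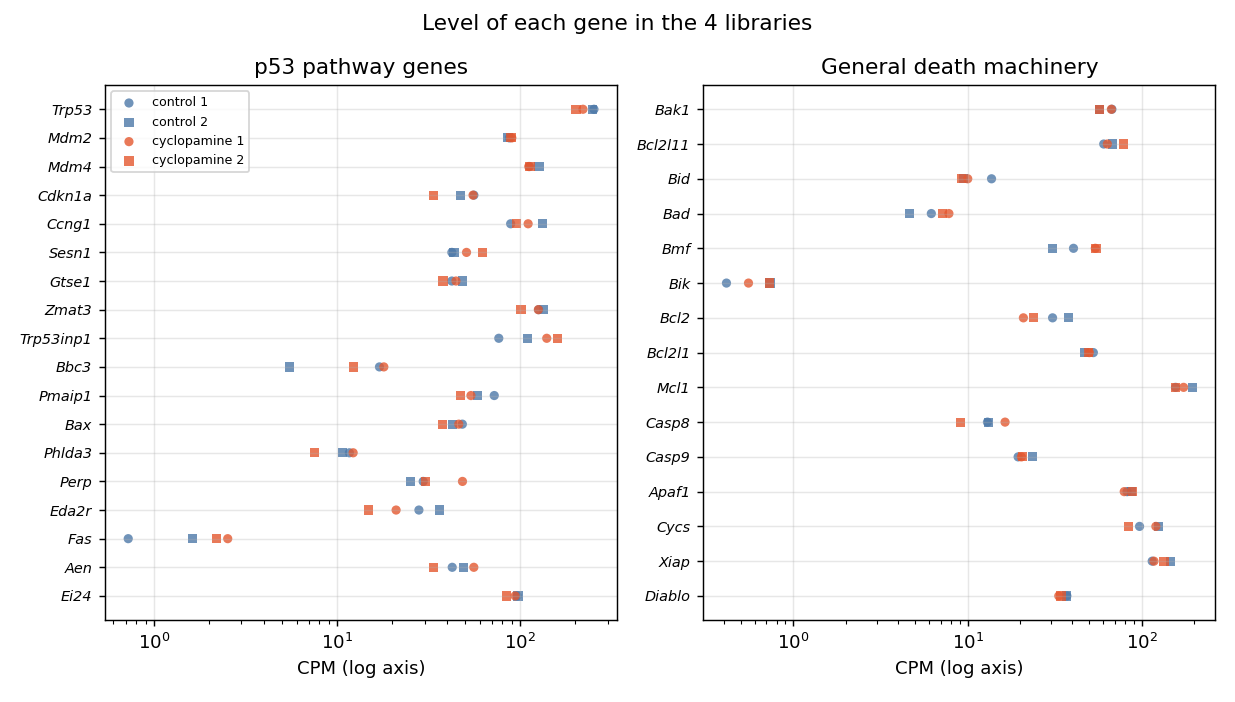
CPM of each gene (log axis) in the 2 control libraries (blue) and the 2 cyclopamine libraries (red), with circles for replicate 1 and squares for replicate 2, for p53 pathway genes (left) and the general death machinery (right). Trp53inp1 and Bmf lie higher and Eda2r and Bcl2 lower in both cyclopamine libraries than in both controls, whereas Bbc3 is spread from 5.51 to 17.99 CPM.

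The core of the pathway differed little between conditions. Trp53 measured 253 and 248 CPM in control medium and 220 and 202 CPM with cyclopamine. Both cyclopamine libraries lay below both controls, by 0.25 on the log2 scale (log2 fold change -0.25, SE 0.15, 95% interval -0.57 to 0.07, limma adjusted p = 0.968). Mdm2, the ubiquitin ligase gene that is both the main inhibitor of p53 and its transcriptional target, measured 87.3 and 85.8 CPM in control medium and 89.9 and 89.0 CPM with cyclopamine. Its log2 fold change of 0.05 had an interval of -0.26 to 0.36. Mdm4, which encodes the related inhibitor, had 112 and 127 CPM in control medium and 111 and 113 CPM with cyclopamine, and the groups overlapped. The interval of Mdm4 ran from -0.40 to 0.23, so modest differences of either gene in either direction were not detectable with these libraries.

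Among the 6 targets that act on the cell cycle or on stress handling, Trp53inp1 had the smallest p of all 33 genes. It encodes a stress-induced protein of the nucleus and of autophagy, and the gene lies on chromosome 4 (11156431 to 11174379, + strand, mm10). Trp53inp1 measured 76.3 and 110 CPM in control medium and 140 and 160 CPM with cyclopamine. Both cyclopamine libraries were above both controls, and the controls also differed from each other, by 0.52 on the log2 scale. The log2 fold change was 0.70 (SE 0.18, 95% interval 0.33 to 1.08), or 1.63-fold, with a limma adjusted p of 0.201 at rank 74 of all genes. Leaving out a library moved the adjusted p between 0.0126 and 0.559: it was under 0.05 without control 2 (log2 fold change 0.96, adjusted p = 0.0232, where 0.316% of all genes passed) and without cyclopamine 1 (0.80, adjusted p = 0.0126, where 0.898% passed).

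Sesn1, which encodes a stress-inducible inhibitor of mTORC1 signalling, measured 42.3 and 43.4 CPM in control medium and 50.9 and 62.0 CPM with cyclopamine. The controls were nearly equal and both cyclopamine libraries lay above them (log2 fold change 0.39, SE 0.16, limma adjusted p = 0.784). Cdkn1a, the cell cycle inhibitor gene p21 and the best known p53 target, measured 55.8 and 47.1 CPM in control medium and 55.2 and 33.7 CPM with cyclopamine. Its groups overlapped, cyclopamine 2 alone being low, and the interval of its log2 fold change ran from -0.68 to 0.19. Ccng1, which encodes cyclin G1, measured 88.6 and 132 CPM in control medium and 110 and 95.9 CPM with cyclopamine. The 2 controls spanned both cyclopamine values of Ccng1.

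Zmat3, a gene for an RNA-binding zinc finger protein, had control values of 126 and 134.1 CPM against 126 and 101 CPM, and its log2 fold change was -0.21 with SE 0.16 (limma adjusted p = 1). Gtse1, whose product binds microtubules and restrains p53 in G2, measured 42.3 and 48.6 CPM in control medium and 44.6 and 37.8 CPM with cyclopamine. Gtse1 is also a gene of proliferating cells. The 10 mitosis genes compared beside it all had log2 fold changes below 0, with a median of -0.31. Of all 13568 genes tested, 6647 lay below 0. In 9 of the 10 both cyclopamine libraries lay below both controls, against 15.8% of all genes tested, and the groups of Cdk1 overlapped. In limma and in edgeR 0 of the 10 passed, with 3 and 4 at an unadjusted p under 0.05 (5.82% and 6.02% of all genes). They summed to 2701 and 2973 CPM in control medium and 2435 and 2129.9 CPM with cyclopamine. Gtse1 itself had a log2 fold change of -0.14 with an interval of -0.50 to 0.22. The part of proliferating cells in its value was not tested.

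The 9 death-linked p53 targets had 3 log2 fold changes above 0 and 6 below, where all 13568 genes tested had 6921 above and 6647 below. Signs of Bbc3, Bax, Phlda3 and Aen turned when a library was left out. Eda2r had the second smallest p of the 33. It encodes a receptor of the tumour necrosis factor receptor family that binds ectodysplasin A2, and it lies on chromosome X (97333840 to 97377216, - strand). Eda2r measured 27.96 and 36.2 CPM in control medium and 21.0 and 14.8 CPM with cyclopamine. Every cyclopamine value was below every control value, and the log2 fold change was -0.83 (SE 0.21, 95% interval -1.28 to -0.38), or 0.561-fold, with a limma adjusted p of 0.218. Without cyclopamine 1 the adjusted p was 0.00715 (log2 fold change -1.08), and without the other libraries in turn it stayed above 0.05, up to 0.698. The neural markers listed above were also lowest in cyclopamine and highest in control 2, and their part in the value of Eda2r was not tested.

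Perp and Fas lay on the other side. Perp, a membrane protein gene needed for desmosomes in stratified epithelia, measured 29.5 and 25.1 CPM in control medium and 48.4 and 30.3 CPM with cyclopamine. Cyclopamine 2 was close to control 1, and the log2 fold change, 0.49 with an SE of 0.21 (limma adjusted p = 0.802), ran from 0.15 without cyclopamine 1 to 0.82 without cyclopamine 2. Ectoderm markers (6 genes) summed to 262 and 188 CPM in control medium and 273 and 185 CPM with cyclopamine, so they too were higher in cyclopamine 1 than in cyclopamine 2, and their part in the value of Perp was not tested. Fas, the death receptor gene, rested on 7 and 22 reads in the controls (0.722 and 1.62 CPM) and 32 and 27 reads in cyclopamine (2.52 and 2.19 CPM). The exact 95% Poisson intervals, which cover counting error only, were 0.29 to 1.49 CPM in control 1, 1.01 to 2.45 CPM in control 2, 1.73 to 3.56 CPM in cyclopamine 1 and 1.44 to 3.18 CPM in cyclopamine 2. The interval of control 2 overlapped those of both cyclopamine libraries, and that of control 1 overlapped only the interval of cyclopamine 2 among them. The log2 fold change was 0.83 (SE 0.43, limma adjusted p = 0.89).

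The BH3-only genes that p53 is best known to induce did not share a direction. Pmaip1, which encodes Noxa, measured 72.1 and 58.5 CPM in control medium and 53.8 and 47.3 CPM with cyclopamine (log2 fold change -0.36, SE 0.16, limma adjusted p = 0.83). Bbc3, which encodes Puma, measured 17.02 and 5.51 CPM in control medium and 17.99 and 12.3 CPM with cyclopamine. The controls of Bbc3 were 1.54 apart on the log2 scale, the widest gap between controls among the 32 tested genes, and its log2 fold change, 0.58 with an SE of 0.37 (limma adjusted p = 0.975), was 1.36 without control 1 (adjusted p = 0.0363, where 0.582% of all genes passed) and -0.19 without control 2, and with any 1 library removed the adjusted p ranged from 0.0363 to 1. The sign and the call of Bbc3 both depended on which control was kept. Control 2 was also the library with the least erythroid RNA, and whether that bears on Bbc3 was not tested.

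The remaining death-linked targets were close to level or varied within cyclopamine. Bax, the pore-forming executor and a p53 target, measured 48.3 and 42.7 CPM in control medium and 46.2 and 37.4 CPM with cyclopamine (log2 fold change -0.13, interval -0.49 to 0.24). Ei24, which encodes a membrane protein of the endoplasmic reticulum linked to autophagy, measured 96.3 and 97.2 CPM against 93.8 and 84.0 CPM. Aen, a gene for an apoptosis-enhancing nuclease, measured 42.5 and 48.8 CPM in the controls, between the 2 cyclopamine values of 55.8 and 33.5 CPM. Phlda3, which encodes an inhibitor of Akt, showed the same form at a lower level, with 11.7 and 10.7 CPM in control medium and 12.2 and 7.54 CPM with cyclopamine. Cdkn1a, Perp, Aen and Phlda3 were all lower in cyclopamine 2 than in cyclopamine 1, so their fold changes depended on which of those libraries was kept. Of the 7 genes with a p53 element in the promoter window, 2 (Bbc3 and Sesn1) had log2 fold changes above 0 and 5 below, from -0.25 (Cdkn1a, Trp53) to 0.58 (Bbc3). Over all 13568 genes tested, 6647 lay below 0. Leaving out a library turned the sign of Bbc3, Cdkn1a, Ccng1 and Aen, so so small a split says little.

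**Figure D2:**
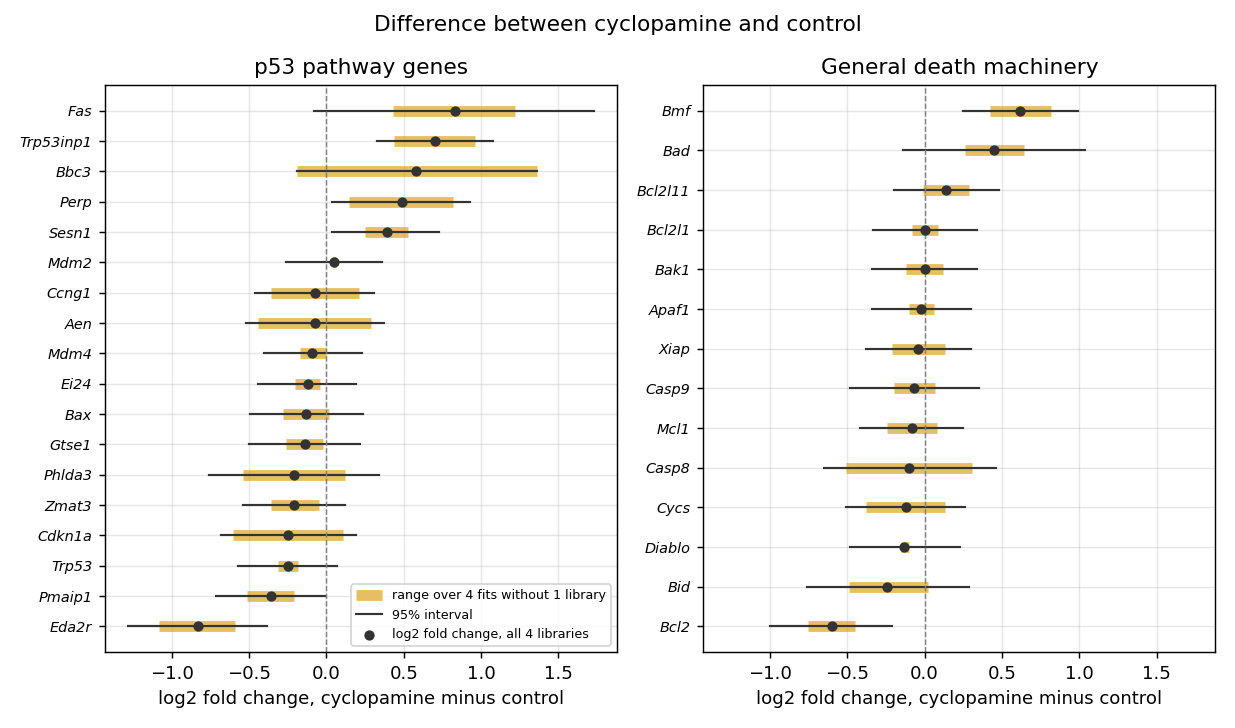
Log2 fold change of cyclopamine over control on the log2(CPM + 0.5) scale for the 18 p53 pathway genes (left) and 14 tested death machinery genes (right), with the 95% interval of limma (black line) and the range of values over the 4 fits that each left out 1 library (yellow band). The intervals of 7 genes leave out 0 before adjustment, and the band of Bbc3 reaches from -0.19 to 1.36.

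In the general death machinery the widest differences were in a BH3-only gene and a survival gene. Bmf encodes a BH3-only protein that is held at the cytoskeleton and freed by loss of attachment or other stress, and the gene lies on chromosome 2 (118528757 to 118549687, - strand). Bmf measured 40.5 and 30.6 CPM in control medium and 54.1 and 54.6 CPM with cyclopamine. The cyclopamine libraries were nearly equal and above both controls, with a log2 fold change of 0.62 (SE 0.17, 95% interval 0.25 to 0.99), or 1.53-fold, and a limma adjusted p of 0.302. Over the fits that left out a library it stayed between 0.42 and 0.82, with adjusted p from 0.0692 to 0.79.

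Bcl2, the founding survival gene of the family, lay in the opposite direction. It measured 30.7 and 38.1 CPM in control medium and 20.9 and 23.9 CPM with cyclopamine. Both cyclopamine libraries were below both controls, with a log2 fold change of -0.60 (SE 0.19, 95% interval -1.0 to -0.21), or 0.658-fold, and a limma adjusted p of 0.406. Its exons on chromosome 1 (106538178 to 106714274, - strand) overlap an annotated gene on the opposite strand over 558 bases, and the labels do not say if counting was by strand. As for Eda2r, the neural marker sum was likewise lower in cyclopamine and highest in control 2, and its part was not tested.

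The other survival genes did not separate the groups. Bcl2l1, which encodes Bcl-xL, measured 52.7 and 46.7 CPM in control medium and 50.02 and 49.3 CPM with cyclopamine, a log2 fold change of 0.00 with an interval of -0.33 to 0.34. Mcl1, a survival gene with a short-lived protein, measured 156 and 195 CPM against 174 and 156 CPM. Bak1, the second executor, measured 67.4 and 56.9 CPM in control medium and 66.9 and 57.2 CPM with cyclopamine. Its same-numbered libraries thus matched each other more closely than the members of a group did. That pattern was not particular to Bak1: over all genes tested, same-numbered libraries deviated from their group means with a correlation of 0.27.

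Among the other BH3-only genes, Bcl2l11, which encodes Bim, measured 60.5 and 67.7 CPM in control medium and 63.4 and 78.2 CPM with cyclopamine, and the groups overlapped. Bad, whose product is inactivated by phosphorylation under growth factor signalling, measured 6.19 and 4.63 CPM against 7.81 and 7.21 CPM (log2 fold change 0.45, SE 0.28, limma adjusted p = 0.973). Bid, which links death receptors to mitochondria, measured 13.7 and 9.48 CPM in control medium and 10.02 and 9.24 CPM with cyclopamine. Exons of Bad and Bid overlap a gene on the opposite strand, over 524 and 628 bases. Bad rested on 60 and 63 reads in the controls and 99 and 89 reads in cyclopamine. Bik had 4 and 10 reads in the controls and 7 and 9 reads in cyclopamine, with 0.413 to 0.735 CPM in all 4 libraries, and it was not tested. Its floor of detection, 3 reads, was 0.22 to 0.31 CPM. Summed over the 5 BH3-only genes, Bmf included, the level was 121 and 113 CPM in control medium and 136 and 150 CPM with cyclopamine. Summed over the 3 survival genes, the level was 239.7 and 279.5 CPM in control medium and 245 and 229 CPM with cyclopamine.

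The 6 genes of the caspase branch all had log2 fold changes from -0.13 to -0.02, and 6647 of all 13568 genes tested also lay below 0. Fits that left out a library turned the sign of Casp8, Casp9, Apaf1, Cycs and Xiap. In limma 0 of the 6 had an unadjusted p under 0.05, against 5.82% of all genes, a share at which so few genes say little. Apaf1, the scaffold of the apoptosome, measured 82.3 and 87.6 CPM in control medium and 79.3 and 88.6 CPM with cyclopamine. Casp9, the initiator caspase that the apoptosome activates, measured 19.5 and 23.6 CPM against 20.4 and 20.6 CPM. Casp8, the initiator caspase of death receptors, had equal controls (13 and 13.2 CPM) and unequal cyclopamine libraries (16.4 and 9.07 CPM). Its interval of -0.65 to 0.46 was the widest of the 6.

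Cycs measured 97.1 and 124 CPM in control medium and 120 and 84.3 CPM with cyclopamine, and because processed copies of this gene exist in the mouse genome its reads may be split or misplaced. Xiap, the caspase inhibitor gene, measured 115 and 145 CPM against 117 and 134.1 CPM. Diablo, whose product relieves that inhibition, measured 37.1 and 36.8 CPM in control medium and 33.4 and 34.4 CPM with cyclopamine. The groups of Diablo did not overlap, but the difference was only 0.13 on the log2 scale (log2 fold change -0.13, SE 0.17), and its exons overlap a gene on the opposite strand over 1326 bases.

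Groups that did not overlap were found for 10 of 18 p53 pathway genes, 5 with cyclopamine higher and 5 lower, and for 4 of 14 death machinery genes, 2 in each direction. Over all genes tested, 32.6% did not overlap, 16.8% with cyclopamine higher and 15.8% lower. The median log2 fold change was -0.11 for the p53 pathway genes and -0.05 for the death machinery, against 0.00 for all genes tested. Taken without sign, the median difference was 0.23 for the p53 pathway genes, 0.11 for the death machinery and 0.14 for all genes. Between single libraries of 1 group, the 2 controls were a median of 0.20 apart for the p53 pathway genes, 0.29 for the death machinery and 0.22 for all genes, and the 2 cyclopamine libraries 0.26, 0.16 and 0.20. A difference between means of 2 libraries is by its construction less noisy than one between single libraries, so these medians are not on an equal footing. A log2 difference over 0.5 in either direction was seen for 6 of 32 genes (Fas, Trp53inp1, Bbc3, Bmf, Bcl2 and Eda2r), against 8.48% of all genes.

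**Figure D3:**
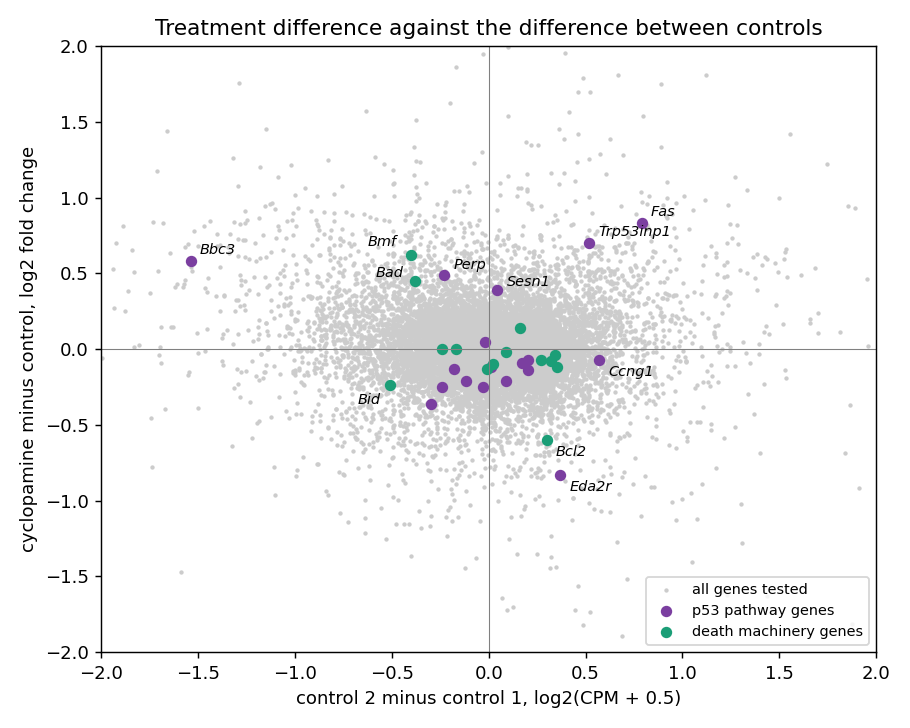
For each gene, the difference between the 2 control libraries (x axis, control 2 minus control 1, log2(CPM + 0.5)) and the log2 fold change of cyclopamine over control (y axis), with p53 pathway genes in purple, death machinery genes in green and all genes tested in grey, both axes cut at 2 so that 37 grey genes are not shown. Bbc3 stands far to the left at -1.54, and Trp53inp1 and Fas have controls that differ by 0.52 and 0.79.

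Of 37 other tested genes of p53 signalling and its targets, 0 passed in limma and 2 had an unadjusted p under 0.05 (5.82% of all genes), both higher in cyclopamine, with Plk2 among them. Plk2, a stress-induced kinase gene, had 215 and 160 CPM against 272 and 233 CPM (log2 fold change 0.44, SE 0.17, limma adjusted p = 0.678). Sesn2, the relative of Sesn1, measured 48.9 and 31.0 CPM in control medium and 68.6 and 43.4 CPM with cyclopamine. Thbs1, which encodes thrombospondin 1, measured 35.9 and 31.4 CPM against 34.1 and 61.8 CPM, so its difference came from cyclopamine 2. Their log2 fold changes, over the 37, had a median of 0.00, with 19 above 0 and 18 below. The edgeR test also called 0 of them, with 3 at an unadjusted p under 0.05 (6.02% of all genes).

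Of 28 other apoptosis genes, 0 passed in limma and 1, Bok, had an unadjusted p under 0.05, again against 5.82% of all genes. Bok, an executor related to Bax and Bak1, measured 9.29 and 8.52 CPM in control medium and 7.10 and 4.38 CPM with cyclopamine (log2 fold change -0.63, SE 0.28, limma adjusted p = 0.83). Ripk1, the kinase gene downstream of death receptors, measured 14.8 and 21.7 CPM against 21.9 and 27.6 CPM. Dffb, which encodes the nuclease that cuts DNA in dying cells, measured 5.98 and 8.08 CPM in control medium and 8.68 and 11.5 CPM with cyclopamine. Over the 28 genes the median log2 fold change was 0.03, with 15 above 0 and 13 below, and edgeR called 0 of them, with 0 at an unadjusted p under 0.05.

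To compare levels between genes, CPM was divided by the length of all annotated exons (CPM per kilobase, GENCODE vM21). By this measure Trp53 was the most abundant of the 33 in the controls, at 62.5 and 61.2 CPM per kilobase, followed by Mcl1 at 45.7 and 57.0. Cycs (28.5 and 36.5), Ccng1 (25.2 and 37.6) and Bax (30.6 and 27.1) came next, and their order was within the spread of the controls. Among survival genes the mean control level ran from 51.2 CPM per kilobase for Mcl1 through 10.8 for Bcl2l1 to 3.76 for Bcl2, a wider range than the difference between conditions for any of them. Fas (0.35 and 0.784) and Bik (0.259 and 0.462) were the scarcest, and control 2 was above control 1 for both. Lengths of all annotated exons exceed those of a single transcript, so the scale understates genes with many alternative exons. Exons of 9 of the 33 genes overlap another annotated gene, 8 of them on the opposite strand.

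**Figure D4:**
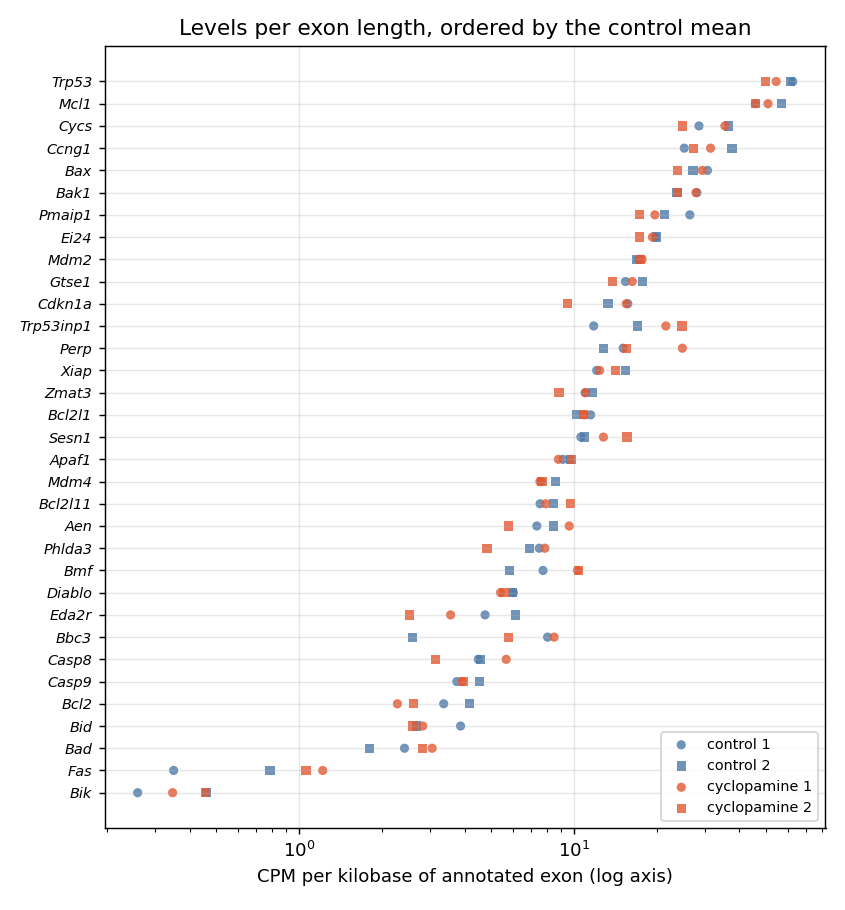
CPM per kilobase of annotated exon (log axis) for all 33 genes in each library, ordered by the mean of the controls, with control libraries in blue and cyclopamine libraries in red. The genes span from 0.361 (Bik) to 61.8 (Trp53) CPM per kilobase in the control means, and the 4 libraries of a gene mostly lie closer together than genes far apart in the order.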

How the data were processed

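Per the labels, RNA of limb buds was extracted with TRIzol after culture and sequenced on SOLiD. The authors deposited 1 normalized signal for each gene in each library, about CPM of an effective library size. The submitters' processing notes name mm10 and, without saying what each did, TopHat2 2.0.9, HTSeq 0.5.4p5, edgeR 3.4.2, Bowtie and SAMtools. All values (100%) were whole multiples of 1 read within 0.01, so reads were recovered. A second table that the authors deposited holds each gene's log2 fold change, p-value and false discovery rate and does not name its test.

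Genes averaging 1 CPM or more were compared with limma 3.58.1 (R 4.3.3, intensity trend) on log2(CPM + 0.5), two-sided, with a threshold of 0.05. Fold changes are on that scale, which understates low genes. The floor is 3 reads and covers counting error only. Alternatives were edgeR 4.0.16, DESeq2 1.42.0, other pseudocounts, filters and scalings, a replicate block and leaving out each library. The scripts were tested on simulated data. Every pair of libraries differed by more than sampling noise (a chi-square of at least 8.06 per degree of freedom). Same-numbered libraries differed least, at 8.06 for replicates 1 and 13.2 for replicates 2. The 2 controls gave 14.9 and the 2 cyclopamine libraries 15. Differently numbered libraries of opposite groups gave 16.7 and 19.3.

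Members and lists were chosen with earlier results of these data known. All 33 members are reported, with full statistics for the 12 of smallest p, and up to 4 genes of smallest p from each further list. A gene of each further list stands in its counts and is not reported here by name. Of the further p53 list, 3 genes were matched by older symbols and 1 was not analysed here.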

Additional observations from a re-analysis of the deposited data

How the results depend on the processing

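The count of 0 members past the threshold, in the p53 pathway and in the death machinery, was the same with a pseudocount of 0.1 or 1 CPM, with no filter, with a mean of at least 5 CPM, without an intensity trend, in edgeR, in DESeq2 and under both other scalings. Over all genes the count was 38, and it was 2 with no filter, 0 with no intensity trend (837 genes had an unadjusted p under 0.05) and 20 with each library scaled to its own total. With the replicate number as a block, for which the labels name no shared litter or day, the count was 351 genes (2.59% of those tested), 2 p53 pathway genes (Trp53inp1, adjusted p = 2e-06, and Eda2r, 0.000156) and 2 death machinery genes (Bmf, 0.00195, and Bcl2, 0.0131); same-numbered libraries deviated together with a correlation of 0.27 across genes. When a library was left out, in fits where a lone library was assumed to vary like the other group, the count ran from 43 to 122 over all genes and from 0 to 2 in the p53 pathway. The p53 pathway median ran from -0.23 to 0.04 and the death machinery median from -0.09 to 0.04. Calls were gained for Bbc3 without control 1, for Trp53inp1 without control 2 and for Trp53inp1 and Eda2r without cyclopamine 1, where 0.582%, 0.316% and 0.898% of all genes passed. Those fits turned the sign of 16 genes. Their log2 fold changes ran from -0.12 to 0.12 for Bak1, -0.49 to 0.02 for Bid, -0.36 to 0.21 for Ccng1, -0.19 to 1.36 for Bbc3, -0.44 to 0.29 for Aen, -0.08 to 0.09 for Bcl2l1, -0.24 to 0.08 for Mcl1, -0.20 to 0.07 for Casp9, -0.10 to 0.06 for Apaf1, -0.38 to 0.13 for Cycs, -0.21 to 0.13 for Xiap, -0.60 to 0.11 for Cdkn1a, -0.28 to 0.02 for Bax, -0.54 to 0.12 for Phlda3, -0.01 to 0.29 for Bcl2l11 and -0.51 to 0.31 for Casp8. Bak1 was at 0.01 with each library scaled to its own total and with upper-quartile scaling, and Bcl2l1 at 0.00 in edgeR and in DESeq2, with the sign turned from a value that also rounds to 0.00. The causes of these shifts were not tested. Depth limits Fas and Bik, which rest on 4 to 32 reads per library.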
